A study of Mus musculus with 23 samples.

Results

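The regions described here are the 34631 stretches of open chromatin in which a peak was called in all 8 libraries of a pair of knockout experiments on mouse Kupffer cells. The 23 libraries of the series held 155137 regions, and 87883 of these were called in any of the 8. At each of the 34631 regions the effect of losing Nr1h3 was set against the effect seen in the libraries titled as a Smad4 knockout, and the difference between these effects, the double contrast, was tested.

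Chromatin accessibility was measured by ATAC-seq, an assay that sequences the fragments a transposase cuts out of open DNA. The Nr1h3 knockout libraries (n = 2) came from TIM4+ Kupffer cells of untreated Nr1h3 flox/flox Clec4f-cre +/- mice. Their controls (n = 2) came from TIM4+ Kupffer cells of untreated Nr1h3 flox/flox mice, which carry the floxed alleles without cre. The titles call the knockout cells KcClecPosTim4Pos and the control cells KcClecNegTim4Pos. In the Nr1h3 comparison this Clec term, cre and the loss of Nr1h3 therefore cannot be told apart. The libraries titled Smad4KO (n = 2) and Control (n = 2) were made from Kupffer cells of untreated mice, and their titles name no TIM4 gate. Clec4f-cre drives recombination in Kupffer cells from the promoter of a lectin gene of these cells, so both deletions rest on one driver. All 8 file headers named male mice. The labels do not say whether the Nr1h3 libraries of a group came from separate animals. The titles of the Smad4 libraries end in different numbers, which may stand for separate mice. The p-values therefore measure only the spread between libraries, which may be technical.

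The labels of the Smad4 experiment go against each other. The libraries titled Smad4KO have the strain label Smad4 flox/flox, without cre, and those titled Control have the label Smad4 flox/flox Clec4f-cre +/-. The file headers also say Smad4KO or Control, as the titles do. All 4 of these headers hold the term KcClecNeg as well, which the headers of the Nr1h3 controls hold and those of the Nr1h3 knockouts lack. What KcClecNeg and KcClecPos stand for is not given in the sources used here. Directions below follow the titles, and under the strain labels each Smad4 difference takes the opposite sign. The regions tested within Nr1h3 and Smad4 themselves missed the threshold in both experiments. Their position relative to the deleted exons is not given in the sources used here, so they do not check the genotypes.

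Nr1h3 encodes LXRα, a nuclear receptor that binds DNA with RXR as its partner, is activated by oxysterols, and turns on genes of cholesterol efflux and lipid synthesis. SMAD4 is the shared partner of the receptor-activated SMAD proteins, which carry TGF-β and BMP signals from the cell surface to enhancers. In Kupffer cells, which are macrophages resident in liver sinusoids, both factors are known for their part in the gene program that sets these cells apart from monocytes.

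Promoters lay under 43 of the regions in the classes described below, in 51 windows of the 250 bases before a RefSeq start (GRCm38.p6). The windows below show 1 or more promoters of each kind of response and were chosen after the values were seen. Capitals mark AGGTCA, a nuclear receptor half-site, and CAGAC, the SMAD box, each searched on both strands. AGGTCA was found in 11.8% of the 51 windows and in 14% of all 32851 RefSeq windows of this length. CAGAC was found in 29.4% of the 51 and in 42.2% of all windows. GGCGCC, a GC-rich SMAD element searched in the same way and not marked in the windows, was found in 23.5% of the 51 and in 9.59% of all windows. A match is only a match of letters. Some of the 51 windows overlap each other, and all overlap open regions, while the 32851 windows were not limited to open regions. The shares therefore do not compare like sets.
Cd5l, chr3:87357631-87357880 (plus strand), lower without Nr1h3: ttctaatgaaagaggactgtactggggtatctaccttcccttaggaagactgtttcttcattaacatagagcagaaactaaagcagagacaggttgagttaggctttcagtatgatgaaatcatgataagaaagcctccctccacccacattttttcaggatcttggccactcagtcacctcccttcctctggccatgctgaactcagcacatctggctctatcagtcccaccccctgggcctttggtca
Mcoln2, chr3:146149924-146150173 (plus strand), lower without Nr1h3: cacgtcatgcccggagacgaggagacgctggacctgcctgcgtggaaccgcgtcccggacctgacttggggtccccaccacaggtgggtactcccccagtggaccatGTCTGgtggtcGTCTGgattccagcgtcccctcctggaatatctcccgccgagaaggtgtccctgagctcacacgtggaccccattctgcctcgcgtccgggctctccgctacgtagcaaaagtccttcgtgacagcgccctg
Smad6, chr9:64022060-64022309 (minus strand), higher without Nr1h3: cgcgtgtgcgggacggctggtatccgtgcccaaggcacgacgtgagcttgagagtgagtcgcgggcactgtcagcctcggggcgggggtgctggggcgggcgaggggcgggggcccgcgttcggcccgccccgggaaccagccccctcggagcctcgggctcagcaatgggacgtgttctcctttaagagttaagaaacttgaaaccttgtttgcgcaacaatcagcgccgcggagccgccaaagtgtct
Mcts2, chr2:152686898-152687147 (plus strand), lower in the titled Smad4 knockout: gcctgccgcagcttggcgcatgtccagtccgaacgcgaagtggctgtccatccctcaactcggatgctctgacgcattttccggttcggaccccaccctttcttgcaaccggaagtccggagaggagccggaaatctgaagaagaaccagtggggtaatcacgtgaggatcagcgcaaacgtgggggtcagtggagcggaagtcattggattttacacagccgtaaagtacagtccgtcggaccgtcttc
Fbxo17, chr7:28716532-28716781 (plus strand), higher in the titled Smad4 knockout: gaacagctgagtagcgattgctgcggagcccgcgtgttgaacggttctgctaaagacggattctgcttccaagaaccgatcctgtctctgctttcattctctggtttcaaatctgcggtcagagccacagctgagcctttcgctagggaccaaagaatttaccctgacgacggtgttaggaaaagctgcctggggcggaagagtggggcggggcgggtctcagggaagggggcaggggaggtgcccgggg
Bhlhe41, chr6:145865421-145865670 (minus strand), higher in both: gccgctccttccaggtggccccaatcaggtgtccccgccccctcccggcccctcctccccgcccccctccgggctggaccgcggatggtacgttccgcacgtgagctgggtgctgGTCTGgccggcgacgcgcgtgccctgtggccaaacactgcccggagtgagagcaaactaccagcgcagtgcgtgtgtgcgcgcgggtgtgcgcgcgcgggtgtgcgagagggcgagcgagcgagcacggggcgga
Ccl3, chr11:83649379-83649628 (minus strand), higher in both: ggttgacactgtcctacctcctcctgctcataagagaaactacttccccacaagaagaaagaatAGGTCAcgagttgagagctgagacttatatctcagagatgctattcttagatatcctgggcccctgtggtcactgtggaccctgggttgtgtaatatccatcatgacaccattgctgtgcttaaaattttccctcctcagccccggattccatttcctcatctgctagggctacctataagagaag
Stard13, chr5:151190194-151190443 (minus strand), lower in both: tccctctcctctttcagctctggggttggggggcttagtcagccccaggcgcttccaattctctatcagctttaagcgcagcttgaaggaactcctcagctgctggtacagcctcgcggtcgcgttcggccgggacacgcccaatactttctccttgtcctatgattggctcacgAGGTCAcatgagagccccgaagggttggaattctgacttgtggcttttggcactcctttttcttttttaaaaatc

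The 8 libraries held 14.7 to 18.3 M tags. Peaks took up 24.2% ± 3.3 of the tags in Nr1h3 knockout libraries and 29.7% ± 5.21 in their controls (SD, n = 2 each). They took up 17.5% ± 2.96 in titled Smad4 knockout libraries and 22.4% ± 4.03 in titled controls (SD, n = 2 each). Replicates correlated at r = 0.95 to 0.964 across the 34631 regions. Signal is given as normalised tags, tags per 10 M tags. Differences are on the scale log2(signal + 1) with every library's median set to 0. Before centring, the median region was lower by 0.30 (log2) in Nr1h3 knockout libraries and by 0.32 in titled Smad4 knockout libraries, so uncentred signals can overlap where centred ones do not. Knockout libraries can also lie below their controls before centring with no difference after it. Statements of overlap below are about uncentred signals, and the share of all regions without overlap was not counted.

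The labelled cell type was checked with 8 Kupffer cell markers. Peaks were found at all 8 in both Nr1h3 groups and in titled controls, and at 6 to 7 in titled Smad4 knockout libraries. Their summed signal was 430.3 to 635.7 in Nr1h3 knockout libraries and 829.3 to 1036 in controls. It was 235.4 to 425.5 in titled Smad4 knockout libraries and 565.1 to 733.1 in titled controls. Peaks at 16 endothelial markers summed to 512.1 to 587.1 in Nr1h3 knockout libraries and 1029 to 1276 in controls, and to 574.9 to 862.6 in titled Smad4 knockout libraries and 946.4 to 1105 in titled controls. Tie1, Oit3, Gpr182 and Emcn had no peak in the gene or within 1 kb of it in any of the 8 libraries. Lower sums were not particular to these lists: of 9 cell type lists, 5 had sums below both controls in both Nr1h3 knockout libraries and 7 in both titled Smad4 knockout libraries. The monocyte list was among them, with 112.4 to 154.2 in Nr1h3 knockout libraries and 249.4 to 278.8 in controls, and 113.3 to 134.8 in titled Smad4 knockout libraries and 180.4 to 251.5 in titled controls. The part of these sums in the results below was not tested. With sorted cells in bulk, fewer cells of a type and less open chromatin per cell cannot be told apart.

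Counts of regions that passed were higher for the loss of Nr1h3 than for the titled loss of Smad4, an order that depended on scaling and on single libraries. In the Nr1h3 comparison 2509 of 34631 regions passed limma at an adjusted p under 0.05 (7.24%), 1317 higher (3.8%) and 1192 lower (3.44%). In the titled Smad4 comparison 1096 regions passed (3.16%), 512 higher (1.48%) and 584 lower (1.69%). The counts were 1400 and 1398 under quantile normalisation, 872 and 1131 without Nr1h3 knockout replicate 1, and 902 and 958 without Nr1h3 control replicate 2, for Nr1h3 and the titled Smad4 knockout in that order. The effects differed from each other at 222 regions in the double contrast (0.641%), which was positive at 77 (0.222%) and negative at 145 (0.419%). At an unadjusted p under 0.05, 3674 regions differed. The 222 regions included 117 specific to Nr1h3, which passed in the Nr1h3 comparison and not in the Smad4 comparison, with 32 higher and 85 lower. They also included 68 specific to the titled Smad4 knockout, 37 higher and 31 lower.

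By the titles, more regions were classed as common to both losses than as specific to either, though the classes rest on unlike tests. Common regions needed no test of equal effects, while specific ones also had to pass the double contrast, which has a larger standard error. Under the strain labels the order turned round, with 9 common regions and 1496 and 529 specific to Nr1h3 and Smad4. Of 373 regions that passed in both comparisons, 364 had the same sign, with 125 higher and 239 lower, and 9 had opposite signs. The 373 were 14.9% of the regions that passed for Nr1h3 and 34% of those that passed for the titled Smad4 knockout. Across all regions the signs matched at 61.5%, and the effects correlated at r = 0.38 (Spearman rho 0.29, n = 34631 regions of the same 8 libraries). Most regions could not be placed: 2019 passed for Nr1h3 only and 655 for the titled Smad4 knockout only, without passing the double contrast. The smallest absolute double contrast that passed was 0.74, with a median standard error of 0.33 over all regions. Just inside the threshold lay a region at Ogfod2 (double contrast 1.02, adjusted p = 0.0490), and just outside a region at Coq10a (-0.72, adjusted p = 0.0506).

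The count in the double contrast depends on the model and on the labels. It was 2 in limma without a mean-variance trend, 6 without centring, and 3717 with the genotypes of the strain labels. With the trend, the spread pooled over regions weighed 98.3 degrees of freedom, against 4 from a region's own libraries. Without the trend the pooled spread weighed 7.1. The split into higher and lower also moved with scaling: the Nr1h3 comparison gave 424 higher and 976 lower under quantile normalisation, and 40 and 1038 without centring. Without centring the titled Smad4 comparison gave 26 and 518, the double contrast 3 and 3, and the common class 8 and 198. The double contrast count was 111 and 86 without Nr1h3 control replicate 1 or 2, and 135 without Nr1h3 knockout replicate 1.

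**Figure D1:**
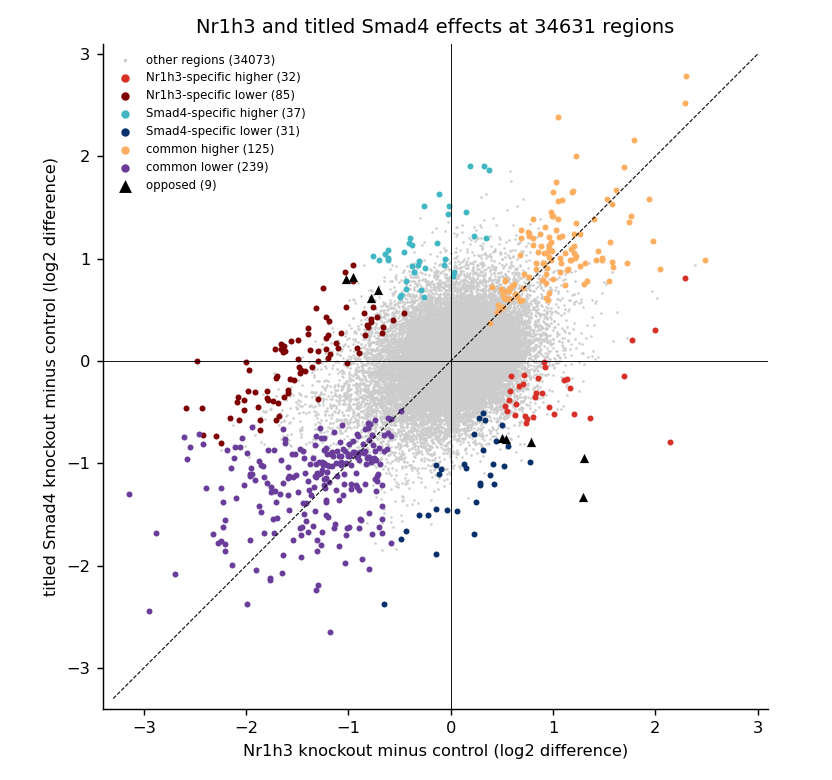
Nr1h3 effect (horizontal axis) against titled Smad4 effect (vertical axis), both as log2 differences of knockout minus control, at 34631 regions; colours mark the classes, triangles the 9 opposed regions, and the dashed line equal effects. The 364 common regions lie along the dashed line in 2 of the 4 quadrants. The specific regions reach from the axes into the quadrants of opposite sign. Their effects shared a sign at 35.9% of Nr1h3-specific and 27.9% of Smad4-specific regions. These shares are lowered by the choice of the classes, which had to pass the double contrast.

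Regions lower without Nr1h3 and not in the titled Smad4 knockout were the largest specific group, with 85 members. Examples lay at Cd5l, Pkp4, Txnrd1, Itpr1 and Mcoln2. The class holds regions, and other regions of these genes can differ. At Cd5l and Txnrd1 another region had a peak in every control library and in no knockout library of either experiment. The one at Txnrd1 had 81 and 68.7 in Nr1h3 controls and 47.8 and 52.5 in titled Smad4 controls. Cd5l, a known LXR target in liver macrophages, encodes a soluble scavenger receptor-like protein. A region 23.5 kb from the gene (chr3:87333732-87334342) had 35.7 and 25.9 normalised tags in Nr1h3 knockout libraries, against 122.0 and 92.4 in controls. The same region had 39.1 and 39.1 in titled Smad4 knockout libraries, against 49.1 and 58.5 in titled controls. Signal fell well below the controls in the first experiment, while in the second the groups did not overlap but lay close. The Nr1h3 difference was -1.47 (SE 0.21, limma adjusted p = 4.1e-08), the titled Smad4 difference -0.12 (SE 0.21, adjusted p = 0.85), and the double contrast -1.35 (SE 0.29, adjusted p = 0.0049).

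The Cd5l promoter behaved alike. It had 16.6 and 27.3 in Nr1h3 knockout libraries, against 87.3 and 86.5 in controls, and 29.6 and 39.1 in titled Smad4 knockout libraries, against 49.1 and 79.8 in titled controls. Neither pair of groups overlapped. The double contrast was -1.14 (SE 0.30, limma adjusted p = 0.041), from an Nr1h3 difference of -1.68 and a titled Smad4 difference of -0.54 that missed the threshold (adjusted p = 0.17).

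The most negative double contrast of this class lay in Pkp4, which encodes a plakophilin of cell junctions (chr2:59231609-59231978). It had 8.94 and 10.9 in Nr1h3 knockout libraries, against 79.8 and 68.0 in controls. The titled Smad4 groups lay side by side, with 35.2 and 45.3 in knockout libraries, against 47.8 and 52.5 in controls, and differed by 0.00 after centring (SE 0.23). The Nr1h3 difference was -2.48 (SE 0.23, limma adjusted p = 4.1e-15) and so was the double contrast (SE 0.33, adjusted p = 1.4e-07). Near Txnrd1, the cytosolic thioredoxin reductase, a region had 16 and 15.7 in Nr1h3 knockout libraries, against 138.2 and 110.3 in controls. The titled Smad4 groups there, 56.4 and 72.6 against 106.0 and 115.9, were apart by -0.46, which missed the threshold (adjusted p = 0.18). Its double contrast was -2.13 (SE 0.26, limma adjusted p = 3.8e-08).

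Double contrasts of the whole class ran from -2.48 to -0.93, and the named members cover varied functions. Poc1b, a centriole gene, had 25.5 and 30.7 in Nr1h3 knockout libraries, against 236.0 and 155.1 in controls, and a double contrast of -1.97 (SE 0.25). The histone deacetylase gene Hdac9 stood at -1.90 (SE 0.44), from an Nr1h3 difference of -1.03 and a titled Smad4 difference of 0.87 that missed the threshold (limma adjusted p = 0.11). Itpr1, the inositol trisphosphate receptor that releases calcium from the endoplasmic reticulum, held 3 such regions of its 17, with double contrasts of -1.73 to -1.25. Mcoln2, an endolysosomal cation channel gene, held 3 of 5, with -1.78 to -1.29. At the Mcoln2 promoter printed above, signal was 31.3 and 32.1 in Nr1h3 knockout libraries, against 82.7 and 54.8 in controls, and 52.5 and 63.9 in titled Smad4 knockout libraries, against 40.6 and 61.8 in titled controls. The Nr1h3 groups did not overlap and the titled Smad4 groups did. Ank2, which encodes the scaffold ankyrin-B, had 2 of its 10 regions here and 2, its promoter among them, in the common lower class.

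Of the 32 regions higher without Nr1h3 alone, the one with the largest double contrast lay 31.7 kb from Hoxb1, a homeobox gene. It had 49.1 and 56.6 in Nr1h3 knockout libraries, against 18.5 and 10.6 in controls. The same region had 6.14 and 7.44 in titled Smad4 knockout libraries, against 13.9 and 18 in titled controls. Neither pair of groups overlapped, and the titled Smad4 difference of -0.79 missed the threshold (limma adjusted p = 0.14). The Nr1h3 difference was 2.14 (SE 0.29, adjusted p = 2.8e-08) and the double contrast 2.93 (SE 0.42, adjusted p = 1.4e-06).

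A region in Zbtb16, the gene of the transcription factor PLZF, had 32.6 and 32.1 in Nr1h3 knockout libraries, against 11 and 12.5 in controls. The titled Smad4 groups, 11.7 and 13.6 against 15.1 and 21.3, differed by -0.15 (adjusted p = 0.87). Its double contrast of 1.84 (SE 0.42) passed (limma adjusted p = 0.0099). Rbl1, a retinoblastoma-family gene, stood at 1.92 (SE 0.42), the actin-binding supervillin gene Svil at 1.73 (SE 0.33) and the myosin gene Myo3b at 1.56 (SE 0.42). Titled Smad4 differences of -0.56 at Rbl1, -0.52 at Svil and 0.21 at Myo3b missed the threshold. Tent5b, a poly(A) polymerase gene, held 2 regions of 3 in this class.

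At the promoter of Smad6, the inhibitory SMAD that BMP signals induce, signal was 125.7 and 126.9 in Nr1h3 knockout libraries, against 132.5 and 82.5 in controls. It was 42.4 and 50.2 in titled Smad4 knockout libraries, against 63.6 and 90.2 in titled controls. The uncentred Nr1h3 values overlap, and the difference of 0.57 (SE 0.17, limma adjusted p = 0.022) arose after centring. The titled Smad4 difference of -0.38 missed the threshold (adjusted p = 0.25), and the double contrast was 0.95 (SE 0.24, adjusted p = 0.028). Under quantile normalisation neither the Nr1h3 difference (0.43, adjusted p = 0.13) nor the double contrast (0.87, adjusted p = 0.065) passed.

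The 37 regions higher in the titled Smad4 knockout alone had a median titled Smad4 difference of 1.01. In Adipor2, an adiponectin receptor gene, a region had 17.2 and 17.7 in Nr1h3 knockout libraries, against 20.2 and 17.8 in controls. It had 37.4 and 36.0 in titled Smad4 knockout libraries, against 9.69 and 13.7 in titled controls. The Nr1h3 groups lay side by side, and the titled Smad4 groups stood far apart. The Nr1h3 difference was 0.19 (adjusted p = 0.76), the titled Smad4 difference 1.91 (SE 0.28, limma adjusted p = 5.3e-07) and the double contrast -1.73 (SE 0.40, adjusted p = 0.013).

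Cbfa2t3, a transcriptional corepressor gene, had 16 and 12.3 in Nr1h3 knockout libraries, against 29.5 and 15.2 in controls, and 31.3 and 41.6 in titled Smad4 knockout libraries, against 12.7 and 18 in titled controls. Only the titled Smad4 groups were apart, by 1.52 (SE 0.29, limma adjusted p = 0.00012), and the double contrast was -1.79 (SE 0.41, adjusted p = 0.0099). Fbxo17, an F-box gene, rose by 1.03 at its promoter, with 18.4 and 16.7 in titled Smad4 knockout libraries, against 10.3 and 10.4 in titled controls. Its double contrast of -1.79 (SE 0.42) also holds an Nr1h3 difference of -0.76 that missed the threshold (adjusted p = 0.097). Mpp7, a polarity scaffold gene, rose by 1.63 (SE 0.23), but replicates differed widely, with 114.4 and 68.2 in titled Smad4 knockout libraries, against 61.8 and 19.7 in titled controls. The fatty acid elongase gene Elovl3 (double contrast -1.70, SE 0.45) and the B cell adaptor gene Blnk (-1.28, SE 0.33) were also in this class, with Nr1h3 differences of -0.61 and -0.13 that missed the threshold.

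The 31 regions lower in the titled Smad4 knockout alone included the promoter of Mcts2, a retrogene that lies within H13. It had 42.1 and 45.7 in Nr1h3 knockout libraries, against 93.1 and 78.6 in controls. It had 7.26 and 14.3 in titled Smad4 knockout libraries, against 61.8 and 84.7 in titled controls. Both pairs of groups were apart, the titled Smad4 pair by more. The Nr1h3 difference of -0.65 missed the threshold (limma adjusted p = 0.051), the titled Smad4 difference was -2.38 (SE 0.22, adjusted p = 7.3e-15) and the double contrast 1.74 (SE 0.31, adjusted p = 0.00032).

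Kcnn3, a calcium-activated potassium channel gene, had 26.8 and 27.3 at its promoter in Nr1h3 knockout libraries, against 35.9 and 22.4 in controls. It had 13.4 and 6.82 in titled Smad4 knockout libraries, against 34.5 and 50.3 in titled controls. The Nr1h3 groups overlapped and the titled Smad4 groups did not, and the double contrast was 1.92 (SE 0.40, limma adjusted p = 0.003). A region near Ldoc1, a leucine zipper gene on the X chromosome, fell to 7.81 and 11.8 in titled Smad4 knockout libraries, against 46.0 and 50.8 in titled controls. The Nr1h3 libraries there had 60.0 and 57.3 in knockouts and 90.2 and 70.6 in controls, and the double contrast was 1.75 (SE 0.31). The synaptic adhesion gene Lrrc4b (double contrast 1.77, SE 0.37) and the urate transporter gene Slc2a9 (1.63, SE 0.37) followed. At Lrrc4b the double contrast joins a titled Smad4 difference of -0.99 to an Nr1h3 difference of 0.78 that missed the threshold (limma adjusted p = 0.052).

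Id3, an inhibitor of DNA binding that BMP signals induce, had a region 20.1 kb away that fell to 14.5 and 37.2 in titled Smad4 knockout libraries, against 58.7 and 61.8 in titled controls. The Nr1h3 groups overlapped, with 62.6 and 63.5 in knockouts, against 85.6 and 58.8 in controls. The titled Smad4 difference was -1.01 (SE 0.21, limma adjusted p = 0.00078) and the double contrast 1.14 (SE 0.30, adjusted p = 0.041). Under quantile normalisation the double contrast missed the threshold (1.17, adjusted p = 0.08). Another region at Id3 had no peak in Nr1h3 knockout libraries, against 32.4 and 17.2 in controls. In titled Smad4 knockout libraries it had no peak and 13.6, against 23.6 and 24.1 in titled controls.

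The opposite-sign class of 9 regions held a region 0.888 kb from Id1, a relative of Id3 with the same mode of action. It had 158.3 and 146.1 in Nr1h3 knockout libraries, against 157.3 and 111.6 in controls. It had 53.0 and 49.6 in titled Smad4 knockout libraries, against 101.7 and 115.9 in titled controls. The uncentred Nr1h3 groups overlapped, whereas the titled Smad4 groups were well apart. The Nr1h3 difference was 0.50 (SE 0.16, limma adjusted p = 0.038), the titled Smad4 difference -0.75 (SE 0.16, adjusted p = 0.001) and the double contrast 1.24 (SE 0.22, adjusted p = 0.00038). Under quantile normalisation the Nr1h3 difference at Id1 was 0.33 and missed the threshold (adjusted p = 0.24), while the double contrast of 1.16 passed (adjusted p = 0.0025). Gramd1b, which encodes a cholesterol transfer protein of the endoplasmic reticulum, went the other way, with 104.0 and 135.1 in Nr1h3 knockout libraries, against 249.9 and 230.4 in controls. Signal at Gramd1b was 144.6 and 184.2 in titled Smad4 knockout libraries, against 121.7 and 130.7 in titled controls. It was lower in the first knockout and higher in the second, with no overlap in either pair.

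**Figure D2:**
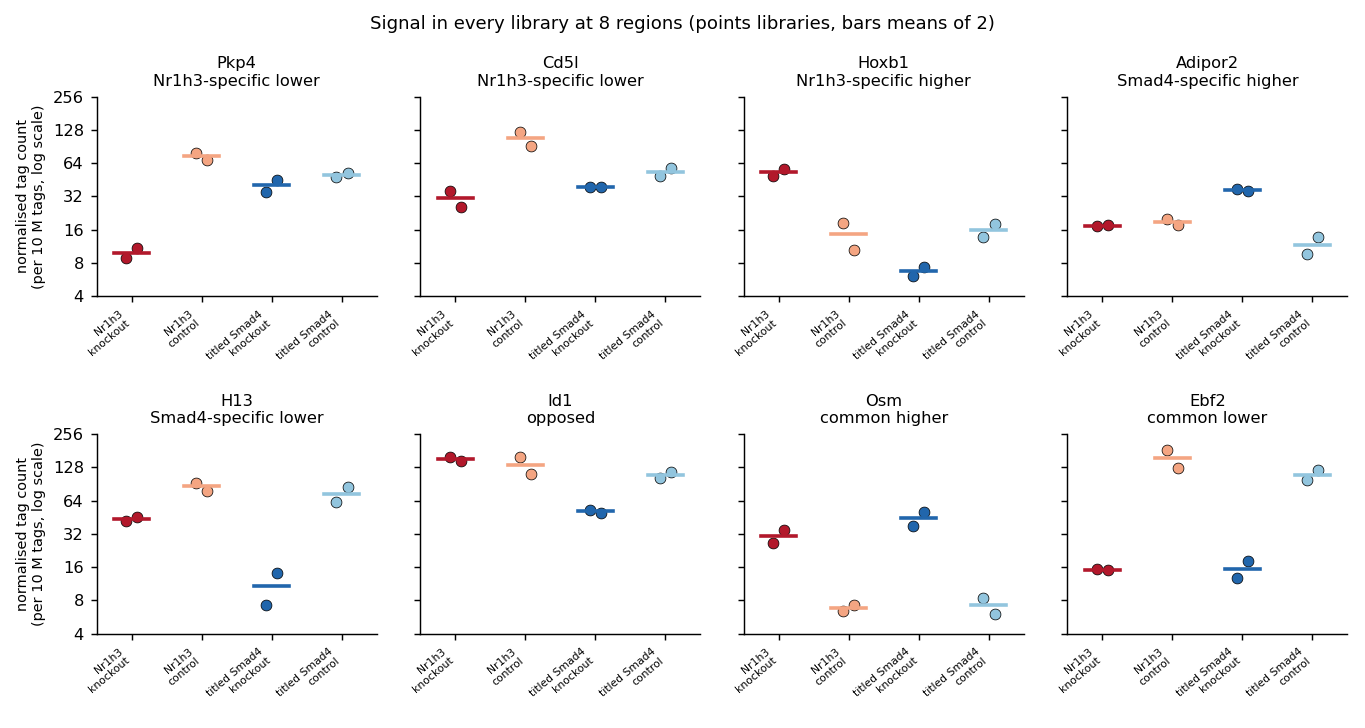
Normalised tags (per 10 M tags, log scale) in each of the 8 libraries at 8 regions; points are libraries and bars group means of 2. The difference between knockout and control is larger for Nr1h3 at Pkp4, Cd5l and Hoxb1, larger for the titled Smad4 pair at Adipor2, H13 (the Mcts2 promoter) and Id1, and above 2 on the log2 scale in both at Osm and Ebf2.

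Regions higher in both losses numbered 125, and the named ones include cytokine, transcription factor and transport genes. One lay 3.67 kb from Osm, which encodes the cytokine oncostatin M. It had 26.2 and 34.8 in Nr1h3 knockout libraries, against 6.36 and 7.26 in controls, and 38.0 and 50.9 in titled Smad4 knockout libraries, against 8.48 and 6.01 in titled controls. Every knockout library stood above every control library. In limma the differences were 2.30 (SE 0.30, adjusted p = 5.8e-09) for Nr1h3 and 2.79 (SE 0.30, adjusted p = 1.5e-11) for the titled Smad4 knockout, and the double contrast of -0.49 (SE 0.43) missed the threshold (adjusted p = 0.74).

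In Slco2b1, an organic anion transporter gene, a region had 47.2 and 57.3 in Nr1h3 knockout libraries, against 11.6 and 13.2 in controls, and 54.7 and 42.2 in titled Smad4 knockout libraries, against 11.5 and 8.2 in titled controls. The transcription factor gene Runx2 had 27.4 and 41.6 against 13.9 and 9.24 for Nr1h3, and 35.2 and 37.2 against 8.48 and 10.4 for the titled Smad4 pair. Neither gene had any overlap between knockout and control libraries. Bhlhe41, a repressor of the circadian clock, Hvcn1, a proton channel gene, and the peptidase gene Amz1 each held 2 such regions. At the Bhlhe41 promoter the rises were 2.05 (SE 0.26) and 0.90 (SE 0.26), with 32.4 and 39.1 in titled Smad4 knockout libraries overlapping 15.7 and 35.0 in titled controls. At the promoter of the chemokine gene Ccl3, signal was 104.7 and 141.3 in Nr1h3 knockout libraries, overlapping 111.6 and 96.4 in controls before centring. The titled Smad4 pair there, 53.6 and 63.3 against 40.6 and 43.7, did not overlap. Under quantile normalisation the Nr1h3 difference of 0.40 at Ccl3 missed the threshold (limma adjusted p = 0.2).

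Regions lower in both losses were the largest class of those shared or specific, with 239 members. A region in Ebf2, a transcription factor gene, had 15.3 and 15 in Nr1h3 knockout libraries, against 185.1 and 126.1 in controls. It had 12.8 and 18 in titled Smad4 knockout libraries, against 98.7 and 120.3 in titled controls. All knockout libraries were far below all controls. The Nr1h3 difference was -2.95 (SE 0.21, limma adjusted p = 2.1e-21), the titled Smad4 difference -2.44 (SE 0.21, adjusted p = 3.5e-16), and the double contrast was -0.51 (SE 0.30, adjusted p = 0.56).

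Near Ryr2, the ryanodine receptor gene, signal was 8.94 and 12.3 in Nr1h3 knockout libraries, against 97.7 and 84.5 in controls, and 10.6 and 19.2 in titled Smad4 knockout libraries, against 72.1 and 88.0 in titled controls. At the promoter of Nr3c2, the mineralocorticoid receptor gene, signal was 44.7 and 64.2 in Nr1h3 knockout libraries, against 225.6 and 191.5 in controls, and 23.4 and 37.8 in titled Smad4 knockout libraries, against 128.4 and 158.0 in titled controls. At both genes the fall was seen in every knockout library. Regions near Tcim, Klhl29 and Magi2 had differences of -2.14, -2.21 and -2.21 for Nr1h3 and of -1.99, -1.86 and -1.79 for the titled Smad4 knockout, all past the threshold. Creb3l2, which encodes a transcription factor activated at the endoplasmic reticulum, held 4 such regions of its 6. The promoter of Bmpr1a, a BMP receptor gene, passed limma in both, with differences of -1.02 (SE 0.27, adjusted p = 0.0091) for Nr1h3 and -1.0 (SE 0.27, adjusted p = 0.019).

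Passing in both comparisons did not make the effects equal, since 16 of the 364 common regions also passed the double contrast. Scd1, the stearoyl-CoA desaturase gene and an LXR target, had a region 14.3 kb away with 8.94 and 11.6 in Nr1h3 knockout libraries, against 79.8 and 66.7 in controls. It had 28.5 and 34.1 in titled Smad4 knockout libraries, against 62.4 and 77.6 in titled controls. Both pairs were apart, the Nr1h3 pair by more. The differences were -2.42 (SE 0.23) and -0.81 (SE 0.23), with a double contrast of -1.61 (SE 0.32, limma adjusted p = 0.0016).

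Abca1, the cholesterol efflux transporter gene and an LXR target, had a region with 11.5 and 28.0 in Nr1h3 knockout libraries, against 149.8 and 99.7 in controls. It had 36.3 and 42.2 in titled Smad4 knockout libraries, against 107.8 and 127.4 in titled controls. The differences were -2.39 (SE 0.20) and -1.24 (SE 0.20), with a double contrast of -1.16 (SE 0.28, limma adjusted p = 0.022). The promoter of Stard13, a GTPase-activating protein gene, repeated this order. It had 10.2 and 7.51 in Nr1h3 knockout libraries, against 76.9 and 65.4 in controls, and 20.1 and 26.7 in titled Smad4 knockout libraries, against 50.9 and 66.1 in titled controls. Its double contrast was -1.62 (SE 0.35, adjusted p = 0.0052).

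**Figure D3:**
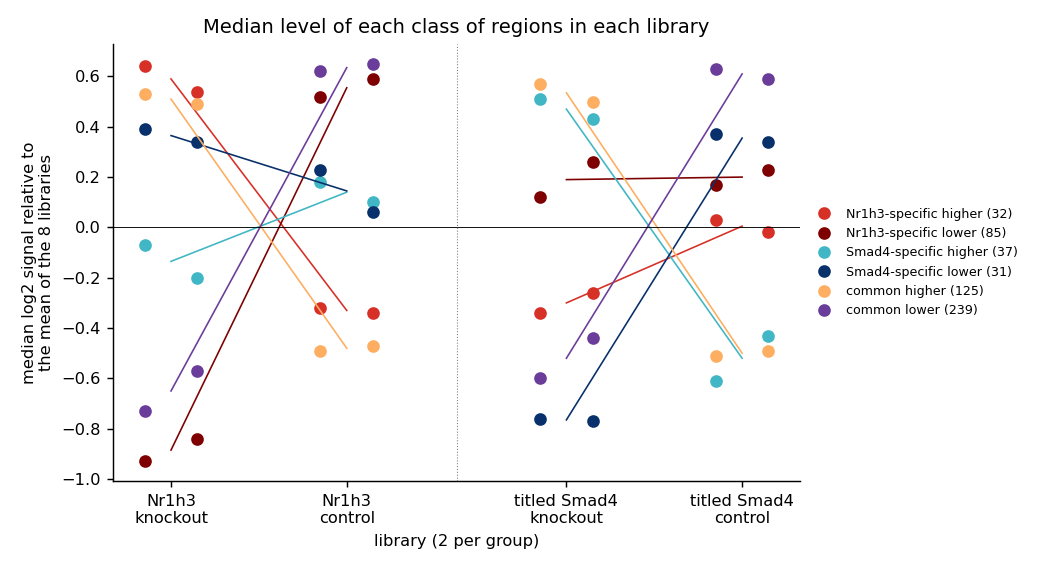
Median over each class of log2 signal, centred per library and taken relative to the mean of the 8 libraries, in each library; points are libraries and lines join group means. In the titled Smad4 libraries the Nr1h3-specific lower class stays between 0.12 and 0.26, while in Nr1h3 knockout libraries it is at -0.93 and -0.84.

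The classes were chosen on these values, so their medians and shares of matching sign are a description. Specific regions had to pass the double contrast, which itself favours effects of opposite sign. The 85 Nr1h3-specific lower regions had a median difference of -1.49 for Nr1h3 and 0.03 for the titled Smad4 knockout. The 31 Smad4-specific lower regions had medians of 0.23 and -1.10. Medians were 0.84 and -0.31 in the Nr1h3-specific higher class, and -0.31 and 1.01 in the Smad4-specific higher class. Both effects had the same sign at 45.9% and 9.38% of Nr1h3-specific lower and higher regions. The share was 35.5% and 21.6% for the Smad4-specific lower and higher classes, against 61.5% of all regions. The common lower regions had medians of -1.24 and -1.10, and the common higher regions 0.98 and 0.99. Control levels moved with the specific classes: the median of Nr1h3 controls minus titled Smad4 controls, after centring, was 0.36 in the Nr1h3-specific lower class and -0.37 in the Nr1h3-specific higher class. It was -0.13 in the Smad4-specific lower class, 0.63 in the Smad4-specific higher class, 0.05 and -0.01 in the common lower and higher classes, and -0.01 over all regions. The part of these control levels in the double contrast was not tested.

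Position and presence in other cells were not used directly in choosing the classes. A RefSeq start lay within 1 kb of 9.76% of Nr1h3-specific lower regions, 25.8% of Nr1h3-specific higher regions, 13.8% and 17.1% of Smad4-specific lower and higher regions, and 13.1% and 5.88% of common lower and higher regions. The share over all members was 32.9%. Among the Nr1h3-specific higher regions the share lay near that of all members. No peak was called in either library of blood Ly6C-high monocytes, from untreated C57BL/6J mice, at 57.7% of common lower regions, 32.9% of Nr1h3-specific lower regions and 35.5% of Smad4-specific lower regions. The share was 14.4%, 18.8% and 13.5% in the common, Nr1h3-specific and Smad4-specific higher classes, and 11.9% over all members.

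Regions lower without the factors were mostly more open in Kupffer cells than in monocytes. Kupffer cells of PBS-treated Clec4f-cre/Rosa26iDTR mice were set against the blood monocytes at the 28061 members called in all 4 of these libraries. Of these, 15485 passed limma (55.2%), 7842 higher in Kupffer cells (27.9%) and 7643 lower (27.2%), or 3292 and 8396 without centring. Among common lower regions 63 of 82 were higher in Kupffer cells and 5 lower, with a median difference of 1.69. Nr1h3-specific lower regions gave 33 higher and 3 lower of 48 (median 1.02), and Smad4-specific lower regions 12 higher and 2 lower of 20 (median 0.64). Each of these shares was above the 27.9% of all members. Common higher regions gave 20 higher and 38 lower of 80 (median -0.49), Nr1h3-specific higher regions 2 and 11 of 21 (median -0.65), and Smad4-specific higher regions 9 and 11 of 27 (median -0.24). Only regions called in both cell types enter these counts, so those without a monocyte peak are left out. Among those counted, the Runx2 region had 19 and 14.4 in Kupffer cells, against 122.1 and 229.8 in monocytes. The classes also differ in control Kupffer cell signal. Medians in the Nr1h3 control libraries were 79.2 and 62.7 in common lower regions and 28.3 and 27.1 in common higher regions. Over all members they were 53.8 and 43.6. Members of like signal were not compared, and the part of these levels in the Kupffer minus monocyte differences was not tested.

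**Figure D4:**
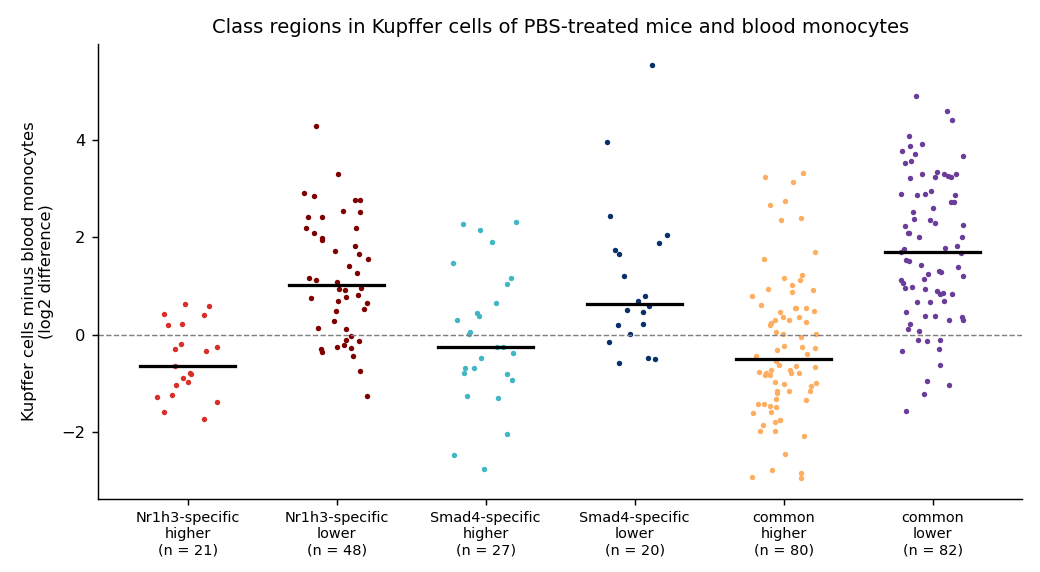
Kupffer cells of PBS-treated mice minus blood monocytes (log2 difference) at the class regions called in all 4 libraries; points are regions, black bars class medians, and the dashed line the median of all 28061 regions. Medians of the lower classes are 0.64 to 1.69, and those of the higher classes -0.65 to -0.24.

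Repopulating liver macrophages, sampled after diphtheria toxin in Clec4f-cre/Rosa26iDTR mice, lay in between. A peak was called at 37.7% and 38.9% of common lower regions in the monocyte libraries, at 47.7% to 56.9% in the 24 h libraries (n = 3) and at 73.2% and 80.3% in the 48 h libraries. The Kupffer libraries of PBS-treated mice had a peak at all 239, near their shares of all members, 97.2% and 98.6%. In the monocyte, 24 h and 48 h libraries the shares of all members were 84.9% and 86.5%, 89.5% to 93.1%, and 97.2% and 97.9%. For the Nr1h3-specific lower class the shares were 57.6% and 65.9% in monocytes, 65.9% to 80% at 24 h, and 96.5% and 97.6% at 48 h. For the Smad4-specific lower class they were 64.5% in both monocyte libraries, 71% in each 24 h library, and 77.4% and 80.6% at 48 h. The share of common lower regions with a peak was below that of all members in each monocyte and repopulating library.

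TIM4- cells of Nr1h3 flox/flox Clec4f-cre +/- mice, which the double contrast does not use, gave another view of the Nr1h3 classes. The Nr1h3-specific lower regions had a median signal of 27.7 and 24.5 in these libraries, against 82.1 and 69.3 in the TIM4+ controls. The TIM4+ knockout libraries had 18.5 and 22.5. Smad4-specific lower regions had 84.2 and 76.0 in the TIM4- knockout libraries, against 85.6 and 64.7 in controls. The controls are the same libraries that chose the classes, and the TIM4 gate differs, so these medians are a description.

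Genes of each pathway were described through lists of known members. Of 134 regions at LXR target genes, 12 fell and 1 rose for Nr1h3 (9.7%, against 7.24% of all regions), with a median difference of 0.10 against 0.08 over all regions. The falls included Apoc1, an apolipoprotein gene (-0.76, SE 0.18), Srebf1, the activator of lipid synthesis genes (-0.68, SE 0.18), and Acsl3, an acyl-CoA synthetase gene (-1.68, SE 0.26). The Srebf1 region had 57.4 and 59.4 in Nr1h3 knockout libraries, against 135.3 and 99.7 in controls. In the titled Smad4 comparison 4 regions of the list fell and 2 rose (4.48%, against 3.16% of all regions). The double contrast passed at 4 regions in the negative direction, 2 at Cd5l and 1 each at Scd1 and Abca1, and at 1 in the positive direction, in Abcg1, another efflux transporter gene (1.53, SE 0.38, limma adjusted p = 0.027). At that Abcg1 region the Nr1h3 groups, 26.8 and 34.1 against 31.2 and 15.8, overlapped, and neither single difference passed. Under quantile normalisation 10 regions of the list fell and 0 rose for Nr1h3, and the double contrast passed at 2 negative and 1 positive. Without centring 12 fell and 0 rose for Nr1h3, and no double contrast of the list passed.

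Among 93 regions at TGF-β and BMP target genes the double contrast passed at 4 (4.3%, against 0.641% of all regions), each time positive, at Id1, at 2 regions of Id3 and at Smad6. Only 1 of these Id3 regions was in the Smad4-specific lower class. Under quantile normalisation 2 of the list passed, both positive, and without centring none did. The titled Smad4 comparison gave 7 lower and 3 higher (10.8%, against 3.16% of all regions), and the Nr1h3 comparison 5 higher and 3 lower (8.6%, against 7.24%), or 0 and 3 under quantile normalisation. The 7 lower regions included 2 at Id1 and 3 at Id3. Rises included Cdkn1a, the cell cycle inhibitor p21 (1.10, SE 0.26), and Pmepa1, a feedback inhibitor of TGF-β signalling (0.66, SE 0.17). Klf10, a TGF-β-inducible zinc finger gene, fell in both (-1.55 and -0.91). At the 95 regions of the receptors, ligands and SMADs themselves, no double contrast passed in limma, with 12 at an unadjusted p under 0.05.

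Kupffer cell identity genes fell at 8 and rose at 5 of 134 regions for Nr1h3 (9.7%, against 7.24% of all regions). They fell at 11 and rose at none for the titled Smad4 knockout (8.21%, against 3.16% of all regions, with 37 regions at an unadjusted p under 0.05 in either direction). Under quantile normalisation 9 fell and 2 rose for Nr1h3, and 15 fell and 0 rose for the titled Smad4 knockout. Without centring 7 and 9 fell in that order, and 0 rose in either. The double contrast passed at 3 regions of the list in the positive and 2 in the negative direction (3.73%, against 0.641% of all regions). Under quantile normalisation 2 passed in each direction, and without centring none did. Id1 and Id3 are also on the TGF-β and BMP target list, and Cd5l is on the LXR target list. Their regions count in both lists, so the lists are not separate results. Clec4f, the lectin gene that also supplies the cre driver, had 90.0 and 88.7 in Nr1h3 knockout libraries, against 144.6 and 149.9 in controls, at a region 12.4 kb away. It had 24.0 and 31.6 in titled Smad4 knockout libraries, against 75.7 and 91.8 in titled controls. Knockout and control libraries did not overlap in either pair. The Nr1h3 difference of -0.41 (SE 0.17) missed the threshold (limma adjusted p = 0.13), and the titled Smad4 difference of -1.24 (SE 0.17) passed it (adjusted p = 1.0e-07). The double contrast of 0.83 (SE 0.25) missed the threshold (adjusted p = 0.096). At the promoter of Timd4, the TIM4 gene, the differences were -0.02 for Nr1h3 and -0.87 (SE 0.22, adjusted p = 0.01) for the titled Smad4 knockout, with 14.5 and 27.3 in its libraries, against 41.2 and 53.0 in titled controls. The titles name a TIM4 gate for the Nr1h3 libraries and none for the Smad4 libraries. The scavenger receptor gene Marco gave -0.01 and -0.90, with a double contrast of 0.89 (SE 0.28, adjusted p = 0.13).

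AP-1 genes rose at 9 of 58 regions for Nr1h3 (15.5%, against 7.24% of all regions) after median centring, and at none under quantile normalisation, where 1 fell, or without centring. The 9 were regions of Fos, Fosb, Atf3, Batf, Mafk, Mafg and Maff, with differences of 0.45 to 0.60. Some overlapped before centring, such as an Atf3 region with 123.2 and 134.5 in Nr1h3 knockout libraries, against 130.1 and 94.4 in controls. For the titled Smad4 knockout none of the 58 passed in limma, with 9 at an unadjusted p under 0.05, and none passed the double contrast, with 2 at an unadjusted p under 0.05. The difference between the losses was therefore not shown for these genes. Inflammatory genes rose at 14 and fell at 4 of 127 regions for Nr1h3 (14.2%, against 7.24% of all regions), and rose at 5 and fell at 2 for the titled Smad4 knockout (5.51%, against 3.16%). Under quantile normalisation 8 rose and 3 fell for Nr1h3, and without centring 2 rose and 2 fell. Socs3, the feedback inhibitor of cytokine signalling, rose in both at a region 26.1 kb away, by 1.07 (SE 0.19) and 1.01 (SE 0.19). That region had 100.2 and 113.3 in Nr1h3 knockout libraries, against 76.3 and 50.2 in controls, and 41.9 and 71.3 in titled Smad4 knockout libraries, against 29.7 and 37.7 in titled controls. Of 268 regions at macrophage transcription factor genes, 17 rose and 8 fell for Nr1h3 (9.33%, against 7.24% of all regions), or 7 and 7 under quantile normalisation, and 10 rose and 3 fell for the titled Smad4 knockout (4.85%, against 3.16%). Runx3 rose in both, by 1.05 (SE 0.30) and 2.39 (SE 0.30), and the double contrast of -1.35 (SE 0.43) missed the threshold (adjusted p = 0.13). At a region 24.7 kb from Maf, the gene of a macrophage differentiation factor, it was 1.67 (SE 0.43, limma adjusted p = 0.037), though neither single difference passed. Of 36 regions of sterol synthesis genes, 3 fell and 2 rose for Nr1h3 (13.9%, against 7.24% of all regions), with Hsd17b7, a cholesterol synthesis enzyme gene (-0.80, SE 0.14), among the falls. Under quantile normalisation 5 fell and 0 rose. The promoter of Cyp51, a sterol demethylase gene, gave the only double contrast of that list to pass, at -1.0 (SE 0.25, limma adjusted p = 0.026), though neither single difference passed there.

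**Figure D5:**
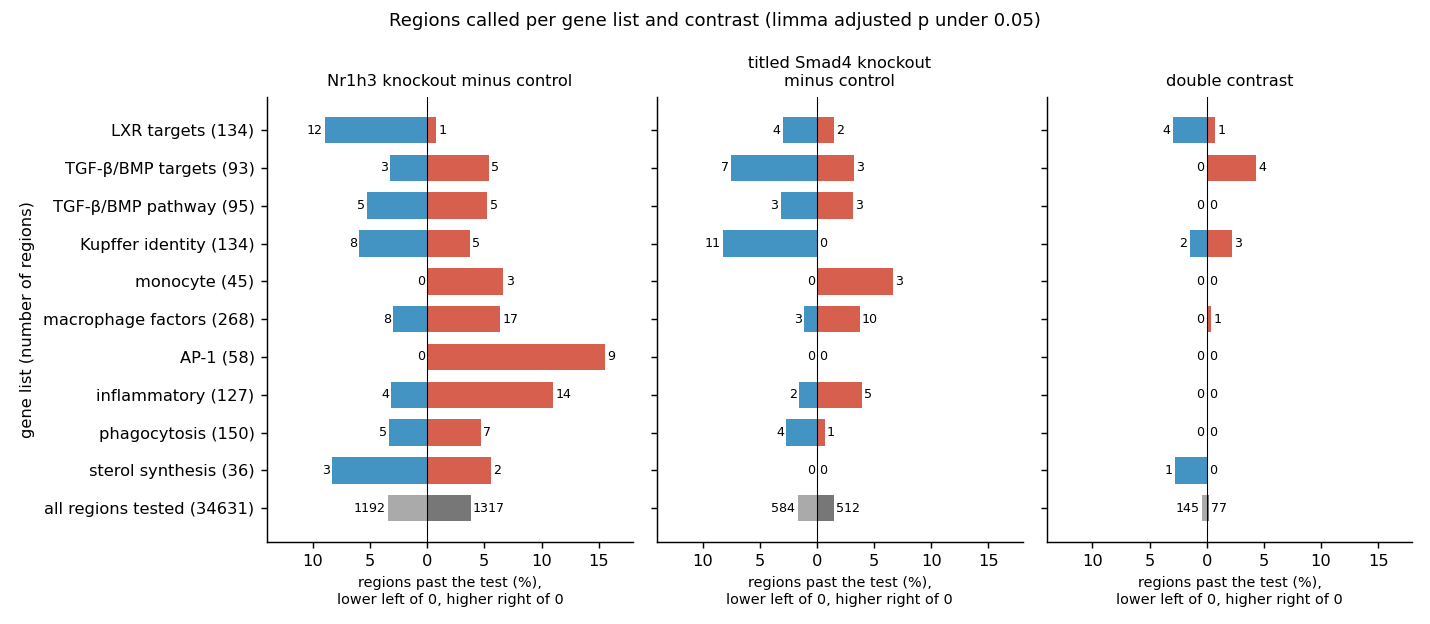
Share of each gene list's regions (%) that passed limma at an adjusted p under 0.05, lower to the left of 0 and higher to the right, in the Nr1h3 comparison, the titled Smad4 comparison and the double contrast; bar ends give the number of regions. TGF-β/BMP targets reach 4 higher and 0 lower in the double contrast, against 77 and 145 over all regions.

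Regions that lost or gained a peak altogether fall outside the members and were counted without a test. Of the 87883 regions called in any of the 8 libraries, 5701 had a peak in both Nr1h3 controls and in neither Nr1h3 knockout library. The reverse was found at 784. For the titled Smad4 pair the counts were 5523 lost and 978 gained. Lost in both were 1244 regions, 21.8% of the Nr1h3 losses and 22.5% of the titled Smad4 losses, and gained in both were 64 (8.16% and 6.54%). Lost in one and gained in the other were 30 and 46. Losses of one experiment with a peak in all 4 libraries of the other numbered 823 without Nr1h3 and 702 in the titled Smad4 knockout. The knockout libraries also had fewer peaks in all, 48775 to 53972 against 58395 to 65621 for Nr1h3, and 49438 to 57403 against 60727 to 67555 for the titled Smad4 pair. The part of this total in the losses was not tested.

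Among the 823 losses without Nr1h3, Stab2 held 8. It encodes stabilin-2, a clearance receptor of sinusoidal endothelial cells. One of the 8, chr10:86885747-86886026, had no peak in Nr1h3 knockout libraries, against 70.0 and 69.3 in controls, with 56.4 and 62.6 in titled Smad4 knockout libraries and 70.9 and 88.0 in titled controls. Stab2 is one of the 16 endothelial markers summed above. Without it the sums were 512.1 to 587.1 in Nr1h3 knockout libraries and 750.8 to 899.4 in controls, and 335.4 to 536.5 in titled Smad4 knockout libraries and 602.5 to 731.3 in titled controls. Their part in the losses was not tested. Scd1 held 3 of the 823 losses, and Itpr1 and Frmd4a 4 each. Counts per gene were not scaled to the number of regions at the gene. Hgsnat, a lysosomal acetyltransferase gene, held another, with no peak in Nr1h3 knockout libraries, against 171.8 and 124.8 in controls, and 20.1 and 33.5 in titled Smad4 knockout libraries, against 82.4 and 95.7 in titled controls. Among the 702 losses in the titled Smad4 knockout, Clec4f held 3. One of them had 9.57 and 17.1 in Nr1h3 knockout libraries, against 30.1 and 20.5 in controls, and no peak in titled Smad4 knockout libraries, against 30.9 and 24.6 in titled controls. Prex1, a Rac exchange factor gene, had 51.7 and 56.0 in Nr1h3 knockout libraries, against 123.2 and 87.1 in controls, and no peak in titled Smad4 knockout libraries, against 64.2 and 72.2 in titled controls.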

How the data were processed

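ATAC-seq peak lists of 23 libraries were used, of which 8 enter the double contrast. Reads were aligned with Bowtie2 to mm10 and peaks called with HOMER, per the submitters' processing notes, whose versions were not given in the sources read. Per the file headers, the authors called peaks of 200 bp in each library at an FDR of 0.001, at least 4-fold over the surrounding 10 kb, with a local Poisson p of 0.0001 and at most 1 tag per bp. The deposited value is a signal, the tag count of a peak scaled by the authors to 10 M tags. Peaks outside the nuclear chromosomes were left out (1205 of 1605886).

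Peaks overlapping by at least 1 bp were merged into regions, and a region's value in a library was that of its strongest peak. Because every member has a peak in all 8 libraries, regions that lost their peak are not members. Values were transformed to log2(signal + 1) and centred on each library's median. A limma fit with a mean-variance trend over 4 group means gave both effects and the double contrast, with Benjamini-Hochberg adjustment over all 34631 regions and a threshold of 0.05. Genes are the nearest protein-coding gene within 50 kb (RefSeq, GRCm38.p6), which need not be the gene a region acts on. Start distances and promoter sequences were not used for chromosome 18.

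Groups came from titles and strain labels, with 2 libraries each. Within each class the 5 regions at a gene with the largest double contrast were named, or for common regions the largest smaller effect. Named as well were up to 4 genes per list with a double contrast past the threshold, up to 3 genes per class with the most regions, and Nr1h3 and Smad4. Some genes that this rule names are not reported here. Other genes were chosen after their values were seen. The members, classes and gene lists were chosen with earlier results of these data known. Alternatives covered scaling, pseudocount, low signal, trend, peak summing, merging, the strain labels, a replicate block and left-out libraries. The scripts were tested on simulated data and used R 4.3.3, limma 3.58.1, Python 3.11.15, pandas 2.3.3 and numpy 2.4.6.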

Additional observations from a re-analysis of the deposited data

Results flagged for a closer look

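At 9 regions the effects of the losses had opposite signs, each past the threshold, and differed from each other in the limma test of the difference. Without Nr1h3 signal was higher, and in the titled Smad4 knockout lower, at Id1 (double contrast 1.24), Dglucy, the D-glutamate cyclase gene (1.3), and Arnt2, a bHLH-PAS transcription factor gene (1.58). The same held at regions with no gene within 50 kb on chromosome 13 (2.25) and chromosome 4 (2.62). The chromosome 4 region had 67.7 and 70.3 in Nr1h3 knockout libraries, against 34.7 and 33.7 in controls, and 9.49 and 14.3 in titled Smad4 knockout libraries, against 26 and 57.4 in titled controls. The opposite pattern was found at Abcc5, an ABC transporter gene (-1.82), Tex52 (-1.78), Gramd1b (-1.40) and Wdr25 (-1.39). Abcc5 had 16.6 and 29.3 in Nr1h3 knockout libraries, against 63.0 and 50.8 in controls, and 44.6 and 62.0 in titled Smad4 knockout libraries, against 31.5 and 44.3 in titled controls. Under quantile normalisation the double contrast passed at all 9, both single differences at 6, and the Nr1h3 rises at Id1, Arnt2 and Dglucy missed the threshold. Without centring the double contrast passed at 2 of the 9. Under the strain labels each of these regions has the same sign in both losses.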

How the results depend on the processing

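Calls of the double contrast depend on limma's mean-variance trend, on centring and on which Smad4 labels are followed. In limma without a trend the counts were 2 regions in the double contrast, 1109 for Nr1h3, 489 for the titled Smad4 knockout, 2 Nr1h3-specific, 0 Smad4-specific and 177 common. Without centring they were 6, 1078, 544, 4, 2 and 206, in the same order. Quantile normalisation gave 1400 for Nr1h3 and 65 Nr1h3-specific regions, and summing the peaks of a region gave 142 in the double contrast and 44 Smad4-specific regions. The genotypes of the strain labels gave 3717 in the double contrast, 1496 and 529 specific to Nr1h3 and Smad4, and 9 common. By construction they turn the Smad4 difference round. Common regions then had Smad4 differences of -2.79 (Osm), -2.52 (Slco2b1), -2.16 (Runx2), -1.11 (Amz1), -0.90 (Bhlhe41), -2.0 (Hvcn1), 2.44 (Ebf2), 2.08 (Ryr2), 1.99 (Tcim), 1.86 (Klhl29), 1.79 (Magi2), 0.81 (Scd1), 1.24 (Abca1), 1.48 (Creb3l2) and 0.77 (Ank2). Double contrasts that changed sign were 0.27 (Fbxo17), 1.26 (Cbfa2t3), 1.52 (Mpp7), 2.10 (Adipor2), 0.47 (Elovl3), 1.02 (Blnk), -1.45 (Kcnn3), -0.21 (Lrrc4b), -2.03 (Ldoc1), -3.03 (H13), -1.13 (Slc2a9), -0.88 (Id3), -0.00 (Arnt2), -0.21 (Dglucy), -0.25 (Id1), -0.08 (Abcg1) and -0.28 (Maf). Of 1437 recomputed values of named regions, 1186 kept their direction and side of the threshold, 219 kept only the direction and these 32 reversed.

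Leaving out 1 library at a time gave 872 to 2747 regions for Nr1h3, 518 to 1131 for the titled Smad4 knockout, 86 to 205 in the double contrast, 50 to 126 and 25 to 54 specific to Nr1h3 and Smad4, and 209 to 317 common. Nr1h3 counts were 872, 1243 and 902 without Nr1h3 knockout replicate 1 and control replicates 1 and 2, and titled Smad4 counts 543 and 518 without its knockout and control replicate 1. Common regions were 233, 209, 215, 219 and 213 without those 5 libraries in turn. Nr1h3-specific regions were 66, 67 and 50 without the 3 Nr1h3 libraries and 77 without titled Smad4 knockout replicate 2. Smad4-specific regions were 42 without Nr1h3 knockout replicate 2, 25 without either Nr1h3 control, and 39 and 35 without titled Smad4 knockout and control replicate 1. Group comparisons with 1 library in an arm assume that it varies like the others. Kupffer minus monocyte counts were 12182 to 14747. With the replicate number as a block the counts were 2562, 1062, 218, 117, 66 and 354, and same-numbered deviations correlated at 0.02 and -0.06, so the libraries share only a number. The cause of these shifts was not tested. The edgeR alternative was not run: tags computed from the signal and the header totals lay within 0.1 of whole numbers, but the deposited signal is rounded and is not itself in whole steps. A removal of the signal-dependent trend in each library, chosen after seeing the data, gave 242 in the double contrast, and 692 higher and 1375 lower for Nr1h3.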
